A study of Mus musculus with 6 samples.

Results

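The genes described here encode the nuclear-encoded subunits of the mitochondrial respiratory chain and ATP synthase, with the assembly factors and the electron carrier that share their gene names. Members were the probe sets whose only gene symbol in the platform annotation began with Nduf, Sdh, Uqcr, Cox4, Cox5, Cox6, Cox7, Cox8 or Atp5, together with Cyc1 and Cycs. This rule, which used no expression value, gave 164 probe sets of 89 genes out of 22626 probe sets tested. Of these genes, 33 encoded subunits of complex I, 4 of complex II, 9 of complex III, 16 of complex IV and 17 of complex V, 9 encoded assembly factors and 1 encoded cytochrome c. A further 8 probe sets that carried a member symbol together with another symbol were not counted as members. All 164 probe sets were tested, with no filter on low values.

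Skeletal muscle of 3 mice injected with an adeno-associated virus (AAV) expressing murine TFEB, a transcription factor of lysosomal and metabolic genes, was compared with muscle of 3 other mice injected with an AAV expressing green fluorescent protein (GFP). All 6 mice were wild-type C57BL/6 animals, with an age of 1 month in the labels and the word adult in the paper. The vectors were AAV2.1-CMV-TFEB and AAV2.1-CMV-GFP, both injected into the muscle, and the CMV promoter is not restricted to muscle fibres. Each mouse gave 1 Affymetrix array, so each group had 3 arrays. Values are log2 signals, and each log2 fold change is TFEB minus GFP with its standard error (SE). For single probe sets this SE is the moderated one of the limma package, which draws each variance toward a value estimated over all probe sets.

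The respiratory chain passes electrons from NADH (complex I) and succinate (complex II) through ubiquinone to complex III, then through cytochrome c to complex IV, which reduces oxygen. Complexes I, III and IV pump protons across the inner mitochondrial membrane, and complex V, the ATP synthase, uses the resulting gradient to make ATP. Several subunits of complex IV exist as tissue isoforms encoded by separate genes, with one form found mainly in heart and skeletal muscle and another in most tissues, and fast and slow fibres differ in how much of the whole chain they hold.

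The arrays carried the label muscle, and the 12 fast fibre markers averaged 13.61 to 13.67 in the TFEB arrays and 13.73 to 13.76 in the GFP arrays, near the top of the scale at 14.37. GFP control replicate 2 stood apart from its group: 844 and 725 probe sets differed by over 2-fold between it and the other GFP arrays, against 87 between those. The 9 macrophage markers averaged 8.59 to 9.28 in the TFEB arrays, 9.18 in GFP replicate 2 and 7.07 and 7.26 in GFP replicates 1 and 3. Of these 9 markers, 1 passed the threshold given below. Embryonic and regenerating fibre markers were higher in the TFEB arrays (7 of 8 passed the threshold, mean 8.66 to 9.06 against 5.99 to 6.24), as were those of fibroblasts (4 of 6, 11.3 to 11.6 against 10.2 to 10.5) and endothelium (5 of 6, 8.29 to 8.46 against 7.16 to 7.42). Slow fibre markers averaged 11.4 to 11.9 in the TFEB arrays and 10.5 to 11.6 in the GFP arrays, with 1 of 7 past the threshold. Of all genes, 8.62% were past it and higher. The 3 adipocyte markers averaged 5.66 to 6.15 in the TFEB arrays and 6.24 to 7.22 in the GFP arrays, with none past it. The 4 cardiac muscle markers averaged 4.75 to 5.09 in the TFEB arrays and 4.38 to 4.61 in the GFP arrays, with 1 past it. The β-actin control probes at the 3′ end exceeded those at the 5′ end by 0.22 to 0.34 log2 units in the TFEB arrays and by 0.037 to 0.077 in the GFP arrays. The part of these differences in the values below was not tested, and in bulk muscle fewer cells of a type and less RNA per cell cannot be told apart. The 1 Tfeb probe set read 7.92, 7.68 and 7.61 in the arrays labelled TFEB overexpression and 8.49, 8.47 and 8.58 in those labelled GFP control (log2 fold change -0.77 ± 0.10, adjusted p = 0.0024), opposite to the label. Whether its probes read the delivered cDNA could not be settled, and groups are named by their labels throughout.

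Most respiratory chain genes changed little. Cox6a1, the widely expressed form of a complex IV subunit, was 2.01-fold higher in TFEB muscle on one probe set and 1.77-fold on its other, and a dim probe set of Cox7c was 1.61-fold higher. One probe set each of Ndufs4, a complex I subunit, and Ndufaf4, a complex I assembly factor, was lower, while brighter probe sets of the same genes were not called. These 5 were the only members past the threshold of an adjusted p under 0.05 (limma, Benjamini-Hochberg over all 22626 probe sets) and a fold change of at least 1.5: 3 of 164 probe sets were higher and 2 were lower, shares of 1.83% and 1.22%, where 7.51% of all probe sets were called higher and 6.11% lower. At an adjusted p under 0.05 with no limit on the fold change, 27 member probe sets were higher (16.5%, against 14.5% of all probe sets) and 12 were lower (7.32%, against 18.1% of all probe sets). With the arrays shifted to equal medians this split was 13 higher and 15 lower, and shifted to the fast fibre markers 41 higher and 6 lower. Such a shift moves all probe sets alike, and their median log2 fold change was then -0.13 and -0.0028, against -0.06 as deposited. The shares of all probe sets called in the shifted fits are not given here, and 14.5% and 18.1% do not apply to them. The member genes were bright, with a median log2 value of 12.1 against 6.52 for all probe sets, and 76 of the 89 lay above the 90th percentile of level.

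The counts at an adjusted p under 0.05 moved with every array. Without TFEB replicates 1, 2 and 3 in turn, 15, 15 and 12 member probe sets were higher and 5, 7 and 3 were lower. Without GFP replicates 1, 2 and 3 in turn, 10, 17 and 14 were higher and 3, 13 and 2 were lower. The shares of all probe sets called in these fits are not given here, so whether the members moved more than other probe sets cannot be told. Past the threshold, 3 or 4 were higher in each of these fits, and 1 was lower without TFEB replicate 3, GFP replicate 1 or GFP replicate 3. Of 22 named results at an adjusted p under 0.05, 11 kept it under all 14 alternative fits: both probe sets of Cox6a1, Cox7c, Cox8a, Cox6b1, Atp5g3, Ndufb7, Sdhaf4, Cyc1 and the lower probe sets of Ndufs4 and Ndufaf4.

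With each gene represented by its brightest probe set, the median log2 fold change was 0.05 for the 33 complex I subunits, 0.16 for the 4 of complex II, 0.21 for the 9 of complex III, 0.14 for the 16 of complex IV and 0.07 for the 17 of complex V. Over all 12393 genes it was -0.05, and over all probe sets -0.06. Of the 79 subunit genes, 60 had a value above 0 (75.9%, against 43.9% of all genes). At an adjusted p under 0.05, complex I had 4 genes higher and 2 lower, complex II none, complex III 4 higher, complex IV 6 higher and 1 lower, and complex V 3 higher. Over all genes 16.8% were higher and 16.8% lower by the same rule, and the share higher was 12.1% in complex I, 44.4% in complex III, 37.5% in complex IV and 17.6% in complex V. Without GFP replicate 2 the medians were 0.03, 0.14, 0.19, 0.12 and 0.06 for complexes I to V. With the arrays shifted to equal medians, the medians of complexes I and V were -0.015 and -0.00038, below 0. That shift moved the median over all probe sets as well, from -0.06 to -0.13. No difference between complexes was tested.

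**Figure D1:**
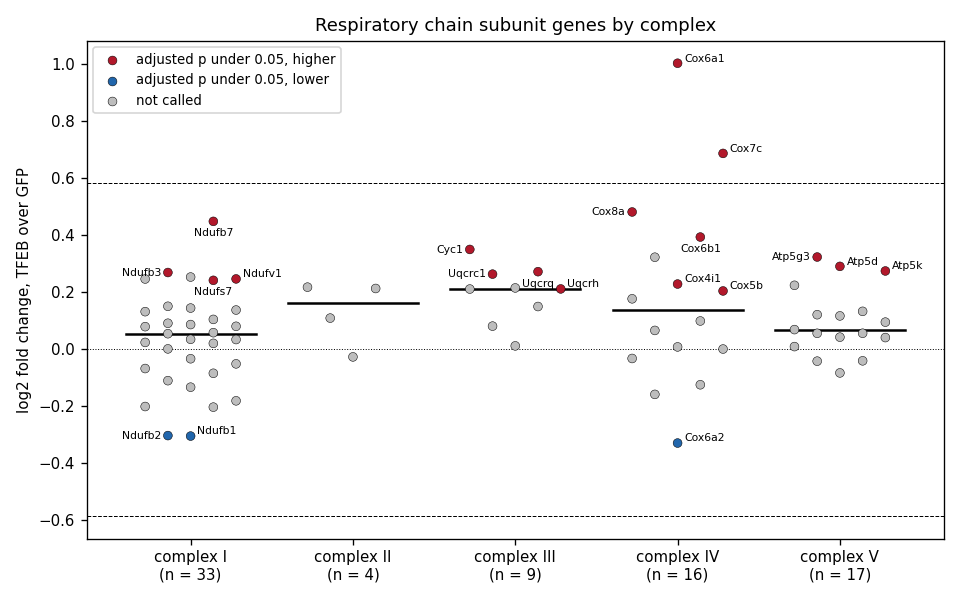
Log2 fold change (TFEB over GFP, vertical axis) of each respiratory chain subunit gene, by complex, on its brightest probe set, with red for higher and blue for lower at an adjusted p under 0.05 and grey for genes not called. Solid bars are medians (0.05 to 0.21), dashed lines mark a 1.5-fold change, and only Cox6a1 and Cox7c lie beyond them.

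The mean over the subunit genes of each complex, taken in each array relative to the GFP mean, separated the groups in 3 of the 5 complexes. Complex III stood at 0.23, 0.23 and 0.13 in the TFEB arrays and -0.03, -0.02 and 0.05 in the GFP arrays. Complex IV stood at 0.19, 0.18 and 0.20 in the TFEB arrays and -0.04, 0.01 and 0.03 in the GFP arrays. Complex V stood at 0.12, 0.11 and 0.06 in the TFEB arrays and -0.02, -0.03 and 0.05 in the GFP arrays. For these the lowest TFEB array lay above the highest GFP array. These means were taken on the deposited values only, and the share of other gene sets of such sizes that separate was not computed. Complex I overlapped, with 0.09, 0.05 and -0.02 in the TFEB arrays and -0.01, -0.05 and 0.06 in the GFP arrays, and so did complex II, with 0.17, 0.18 and 0.04 in the TFEB arrays and -0.03, -0.04 and 0.07 in the GFP arrays. TFEB replicate 3 was the lowest TFEB array in complexes I, II, III and V, and GFP replicate 3 was the highest GFP array in all 5.

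**Figure D2:**
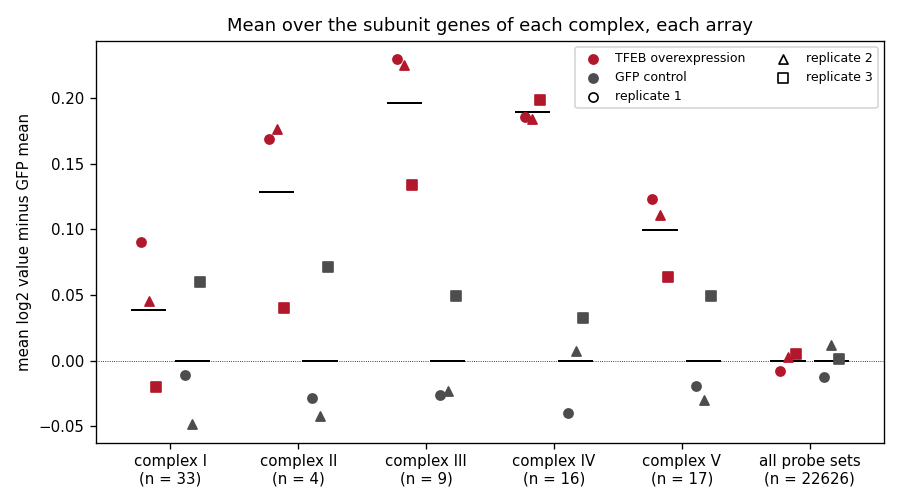
Mean log2 value over the subunit genes of each complex in each array, minus the mean of the GFP arrays (vertical axis), with TFEB arrays in red and GFP arrays in grey, shapes for replicates and bars for group means. On the values as deposited, the groups do not overlap in complexes III, IV and V, and the mean over all 22626 probe sets stays within 0.02 of 0.

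In complex I, the NADH dehydrogenase, the calls were small and ran both ways. Ndufb7, an accessory subunit of the membrane arm, read 12.34, 12.18 and 12.25 in TFEB muscle and 11.76, 11.81 and 11.85 in GFP muscle (log2 fold change 0.45 ± 0.07, adjusted p = 0.0057). Its other probe set was 0.35 ± 0.07 higher, and the groups did not overlap on either. Ndufb1, another accessory subunit, read 7.05, 7.03 and 7.02 in TFEB muscle and 7.34, 7.29 and 7.39 in GFP muscle (-0.30 ± 0.07, adjusted p = 0.014). These groups did not overlap, but the call was lost without TFEB replicate 3 (adjusted p = 0.052), GFP replicate 1 (0.051) or GFP replicate 3 (0.057). Ndufb2 was lower by a similar amount (-0.30 on both probe sets, adjusted p = 0.031 and 0.029) and Ndufb3 was higher (0.27, adjusted p = 0.035).

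Among the core subunits of complex I, Ndufv1, which binds NADH and flavin, read 12.00, 12.03 and 11.97 in TFEB muscle and 11.76, 11.67 and 11.83 in GFP muscle (0.25 ± 0.07, adjusted p = 0.039). Ndufs7, which holds the last iron-sulphur cluster before ubiquinone, read 12.23, 12.10 and 12.11 in TFEB muscle and 11.89, 11.86 and 11.96 in GFP muscle (0.24 ± 0.07, adjusted p = 0.042). The groups of both genes did not overlap, yet leaving out any 1 of the 6 arrays took either call away (adjusted p between 0.059 and 0.12). The other core subunits measured were not called: Ndufs1 was at 0.09, Ndufs3 at 0.02, Ndufs8 at -0.05 and Ndufv2 at 0.05. Ndufa9, whose protein the study followed, read 12.01, 12.09 and 11.95 in TFEB muscle and 11.93, 11.88 and 12.01 in GFP muscle (0.08 ± 0.07, adjusted p = 0.44), and the groups overlapped. Ndufb9 was the complex I member closest to no change, at 12.91, 12.95 and 12.88 in TFEB muscle and 12.92, 12.88 and 12.93 in GFP muscle. Of the 27 accessory subunits, 2 were higher and 2 lower at an adjusted p under 0.05, and their log2 fold changes ran from -0.30 to 0.45.

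Ndufs4, an accessory subunit whose loss impairs complex I in mice and humans, gave 3 different answers on its 3 probe sets. The dimmest, with a mean log2 value of 8.23, read 7.92, 7.78 and 7.42 in TFEB muscle and 8.86, 8.48 and 8.92 in GFP muscle, a fall by 1.05 ± 0.17 (adjusted p = 0.0049), and its groups did not overlap. The brightest, at 10.8, read 10.72, 10.80 and 10.60 in TFEB muscle and 10.93, 10.85 and 10.94 in GFP muscle (-0.20 ± 0.08, adjusted p = 0.089). The remaining one was at -0.01 ± 0.10. Ndufaf4, an assembly factor of complex I, had a similar split: one probe set read 8.72, 8.66 and 8.44 in TFEB muscle and 9.32, 9.05 and 9.33 in GFP muscle (-0.63 ± 0.11, adjusted p = 0.0083), and a brighter one read 9.48, 9.38 and 9.30 in TFEB muscle and 9.51, 9.33 and 9.60 in GFP muscle (-0.09 ± 0.10, adjusted p = 0.48). Ndufaf5, an assembly factor that modifies a core subunit, read 8.35, 8.27 and 8.20 in TFEB muscle and 8.68, 8.51 and 8.85 in GFP muscle (-0.41 ± 0.10, adjusted p = 0.024). That call was lost without TFEB replicate 2 (0.067) or 3 (0.084) or GFP replicate 1 (0.067) or 3 (0.068).

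Complex II, succinate dehydrogenase, is the one complex made wholly of nuclear-encoded subunits, and none of its 4 subunit genes passed the test. Sdha, the flavoprotein, whose protein the study followed, read 12.32, 12.33 and 12.19 in TFEB muscle and 12.29, 12.27 and 12.36 in GFP muscle (-0.03 ± 0.07, adjusted p = 0.80). The groups overlapped on this probe set, and a second Sdha probe set was at 0.13 ± 0.07 (adjusted p = 0.23). The iron-sulphur subunit Sdhb was at 0.11 ± 0.09, and the membrane anchors Sdhc and Sdhd at 0.21 ± 0.09 and 0.22 ± 0.08. Sdhaf4, a factor that helps flavinated Sdha join Sdhb, moved more than any of them: it read 10.25, 10.09 and 10.17 in TFEB muscle and 9.60, 9.51 and 9.70 in GFP muscle (0.57 ± 0.08, adjusted p = 0.0038). Its groups did not overlap, and at 1.48-fold it lay just under the fold limit. The other 2 complex II assembly factors, Sdhaf1 and Sdhaf2, were at -0.22 and -0.05 and were not called.

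In complex III all 9 subunit genes had a log2 fold change above 0, from 0.01 to 0.35, and 4 passed the test. Cyc1, the cytochrome subunit that hands electrons to cytochrome c, read 12.46, 12.53 and 12.45 in TFEB muscle and 12.09, 12.11 and 12.19 in GFP muscle (0.35 ± 0.07, adjusted p = 0.010). Uqcrq, a small accessory subunit, read 12.33, 12.27 and 12.16 in TFEB muscle and 11.91, 12.01 and 12.04 in GFP muscle (0.27 ± 0.08, adjusted p = 0.038). Uqcrc1, a core scaffold subunit, read 12.60, 12.74 and 12.52 in TFEB muscle and 12.32, 12.36 and 12.39 in GFP muscle (0.26 ± 0.08, adjusted p = 0.044). None of these groups overlapped. The Cyc1 call held without any 1 array (adjusted p up to 0.041). The Uqcrc1 call was lost without any of them (0.054 to 0.12), and the Uqcrq call without any except GFP replicate 2 (0.048 without that array, up to 0.12 without another). Uqcrh was also called (0.21, adjusted p = 0.045).

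The Rieske iron-sulphur protein Uqcrfs1, the other catalytic subunit of complex III on the array, was at 0.21 ± 0.07 (adjusted p = 0.065). Uqcrb, the brightest subunit probe set of the complex, read 13.61, 13.53 and 13.53 in TFEB muscle and 13.54, 13.55 and 13.54 in GFP muscle, and was the member of complex III closest to no change. In 3 genes a dimmer probe set lay on the other side of 0 from the brightest. Uqcrb was at 0.01 on its brightest and -0.08 on the other, neither called. Uqcr10 was at 0.08 on its brightest, -0.14 on the next and -0.38 on the dimmest (adjusted p = 0.032, the only one called). In Uqcrq 2 dim probe sets were lower, at -0.31 and -0.39. Cytochrome c itself (Cycs) read 13.34, 13.21 and 13.09 in TFEB muscle and 13.25, 13.17 and 13.13 in GFP muscle (0.03 ± 0.09, adjusted p = 0.81), and the groups overlapped.

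In complex IV, cytochrome c oxidase, 6 of 16 genes were higher and 1 lower at an adjusted p under 0.05. Cox6a1 had the largest change of any member gene on its brightest probe set. It read 11.93, 12.10 and 12.30 in TFEB muscle and 10.81, 11.41 and 11.10 in GFP muscle (1.00 ± 0.17, adjusted p = 0.0060), and its second probe set read 9.61, 9.73 and 9.85 in TFEB muscle and 8.71, 9.10 and 8.91 in GFP muscle (0.82 ± 0.12, adjusted p = 0.0038). GFP replicate 2 was the highest GFP array on both, and without it the changes were 1.15 and 0.92. Cox6a2, the heart and muscle form of the same subunit, moved the other way: it read 12.95, 12.99 and 12.74 in TFEB muscle and 13.18, 13.20 and 13.28 in GFP muscle (-0.33 ± 0.09, adjusted p = 0.031). The groups of neither gene overlapped. The Cox6a2 call was lost without TFEB replicate 1 (0.059) or 3 (0.080) or GFP replicate 1 (0.070) or 3 (0.10).

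Cox8a, the widely expressed form of the smallest subunit, read 9.60, 9.56 and 9.65 in TFEB muscle and 8.99, 9.22 and 9.16 in GFP muscle (0.48 ± 0.08, adjusted p = 0.0068). A second Cox8a probe set was 0.40 ± 0.09 higher and a dim one was at -0.03. Cox8b, the heart and muscle form, read 12.87, 12.78 and 12.81 in TFEB muscle and 12.82, 12.72 and 12.90 in GFP muscle (0.01 ± 0.08, adjusted p = 0.94). The Cox8a groups did not overlap, and those of Cox8b did.

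The bases before the annotated start of Cox6a1, Cox8a and Cox8b are shown because these genes gave the clearest contrast between a widely expressed form and a muscle form. Each is the 250 bases before the start in RefSeq (GRCm38.p6), 5′ to 3′ on the gene's strand, and capitals mark matches to the motifs CCGGAAG (bound by ETS factors such as GABP, also called NRF-2) and GCGCATGC (NRF-1), on either strand. No entry of the promoter table was matched to Cox6a2.
Cox6a1 promoter (chr5:115348959-115349208, minus strand): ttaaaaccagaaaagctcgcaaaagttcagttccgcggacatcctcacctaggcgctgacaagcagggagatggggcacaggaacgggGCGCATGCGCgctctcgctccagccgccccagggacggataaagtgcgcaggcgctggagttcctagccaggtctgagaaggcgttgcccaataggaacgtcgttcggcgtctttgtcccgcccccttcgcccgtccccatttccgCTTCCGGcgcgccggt
Cox8a promoter (chr19:7217617-7217866, minus strand): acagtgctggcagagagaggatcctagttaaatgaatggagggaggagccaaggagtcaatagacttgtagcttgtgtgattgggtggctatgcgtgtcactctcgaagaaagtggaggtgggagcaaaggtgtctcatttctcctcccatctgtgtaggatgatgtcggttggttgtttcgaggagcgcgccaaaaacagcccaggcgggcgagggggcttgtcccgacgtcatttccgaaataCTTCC
Cox8b promoter (chr7:140900447-140900696, minus strand): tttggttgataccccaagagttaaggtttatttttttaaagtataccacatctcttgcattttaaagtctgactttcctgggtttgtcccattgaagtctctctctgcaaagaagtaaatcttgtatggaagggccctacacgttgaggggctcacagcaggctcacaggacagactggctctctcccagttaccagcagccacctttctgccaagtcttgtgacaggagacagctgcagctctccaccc
The Cox6a1 window held GCGCATGC on both strands, overlapping, at 162 and 160 bases before the start, and CCGGAAG on the reverse strand at 16 bases. In Cox8a a reverse CCGGAAG began 5 bases before the start, so that the last letters of it lie past the printed window, and another began 32 bases after the start. None of the motifs searched was found in the Cox8b window, which says only that these letters were not there.

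The remaining isoform pairs of complex IV behaved differently from each other. Cox7a1, the heart and muscle form, read 12.17, 12.13 and 12.05 in TFEB muscle and 11.88, 11.88 and 12.06 in GFP muscle (0.18 ± 0.08, adjusted p = 0.13). Cox7a2, its widely expressed counterpart, read 12.94, 12.85 and 12.84 in TFEB muscle and 12.77, 12.74 and 12.82 in GFP muscle (0.10 ± 0.07, adjusted p = 0.30). Neither was called. Cox4i1, the main form of the largest nuclear-encoded subunit, read 13.23, 13.22 and 13.22 in TFEB muscle and 12.98, 13.00 and 13.01 in GFP muscle (0.23 ± 0.06, adjusted p = 0.030). Its arrays hardly spread within a group (SD 0.0061 in TFEB and 0.017 in GFP muscle). Its moderated SE was 0.0613, where the lowest of all probe sets was 0.0609, and the call was lost without any 1 array (0.051 to 0.097). Cox4i2, the lung form, was dim, at 5.50, 5.47 and 5.76 in TFEB muscle and 5.62, 5.66 and 5.83 in GFP muscle, and the groups overlapped.

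The difference within each pair (muscle or first-named form minus the other, in each array) was compared between groups by an exact two-sided permutation test over the 6 arrays, whose smallest possible p is 0.10 with 3 arrays against 3. The SE of a pair difference comes from the 6 arrays alone, without moderation. Relative to the GFP mean, Cox6a2 minus Cox6a1 stood at -1.10, -1.22 and -1.68 in the TFEB arrays and 0.26, -0.32 and 0.06 in the GFP arrays, a change of -1.33 ± 0.24. Cox8b minus Cox8a stood at -0.42, -0.47 and -0.53 in the TFEB arrays and 0.14, -0.19 and 0.05 in the GFP arrays, a change of -0.47 ± 0.10. In both pairs all 3 TFEB arrays lay below all 3 GFP arrays. Cox4i2 minus Cox4i1 changed by -0.35 ± 0.11, and Cox7a1 minus Cox7a2 by 0.08 ± 0.04 with overlapping groups. Over the 6 pairs compared, 5 reached the smallest p (exact p = 0.10, 0.12 after adjustment over the pairs) and the Cox7 pair gave an exact p of 0.30. Reaching it means only that the groups did not overlap, and the share of other gene pairs that do so was not computed. In Atp5g1 minus Atp5g3 the margin was narrow, with the highest TFEB array at -0.053 and the lowest GFP array at -0.049. Without GFP replicate 2 the changes were -1.49 for the Cox6a pair and -0.57 for the Cox8 pair.

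**Figure D3:**
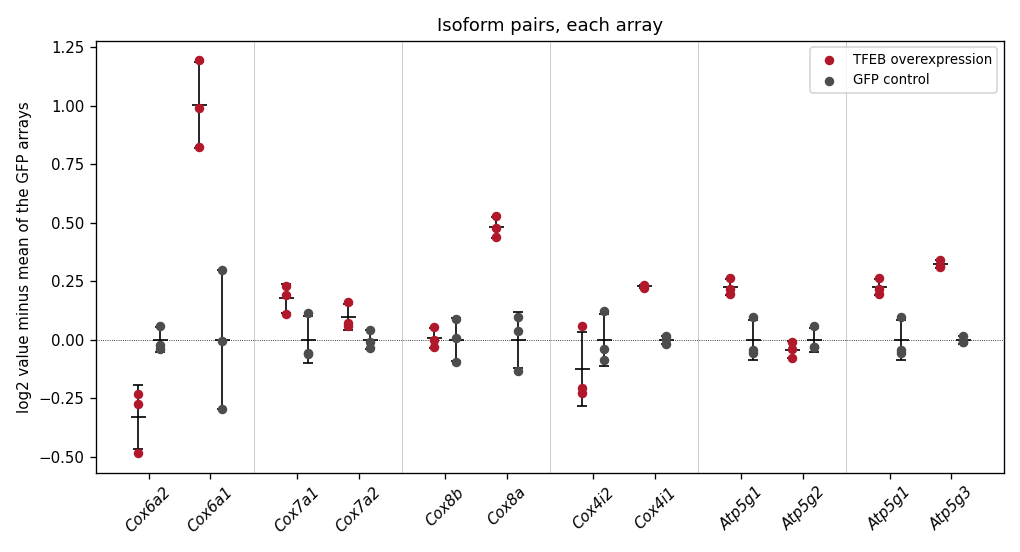
Log2 value of each array minus the mean of the GFP arrays (vertical axis) for the members of the 6 isoform pairs, with TFEB arrays in red at the left and GFP arrays in grey at the right of each gene, and bars for mean ± SD (n = 3). Cox6a1 and Cox8a stand about 1.00 and 0.48 above the GFP mean, while Cox6a2 stands 0.33 below it and Cox8b at it.

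The other called genes of complex IV were structural subunits. Cox6b1, which faces the intermembrane space, read 13.35, 13.26 and 13.29 in TFEB muscle and 12.85, 12.89 and 12.99 in GFP muscle (0.39 ± 0.07, adjusted p = 0.0080), and its second probe set was 0.40 ± 0.07 higher. Cox5b, a matrix-side subunit, read 13.59, 13.57 and 13.58 in TFEB muscle and 13.37, 13.36 and 13.39 in GFP muscle (0.20 ± 0.06, adjusted p = 0.044). The groups of both genes did not overlap. The Cox5b call was lost without any 1 array (0.082 to 0.12), and on its 6 probe sets the log2 fold change ran from -0.15 to 0.23. Cox7c, a small membrane subunit, was measured only on dim probe sets: one read 6.55, 6.26 and 6.34 in TFEB muscle and 5.82, 5.61 and 5.67 in GFP muscle (0.69 ± 0.10, adjusted p = 0.0041), and the other, at 3.08 to 3.87 in all arrays, was at 0.26 ± 0.19.

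Cox5a, whose protein the study followed, read 13.15, 13.18 and 13.13 in TFEB muscle and 13.12, 13.15 and 13.19 in GFP muscle, and its log2 fold change was the closest to 0 of any complex IV member (adjusted p = 0.99). Its other 2 probe sets were at 0.14 ± 0.07 and 0.08 ± 0.08 and were not called. The groups overlapped on the brightest. Thus none of Ndufa9, Sdha and Cox5a passed the test on any probe set. By immunoblot the paper reports more of these proteins in TFEB-transfected muscle, and by real-time PCR induced respiratory chain transcripts. It also reports higher activities of complexes I to IV and, from its expression profiling, induced genes of mitochondrial function. Protein and enzyme activity are different measures from array RNA. Real-time PCR reads RNA as the array does, and its difference from the values here was not tested.

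In complex V, 14 of 17 genes had a log2 fold change above 0 and 3 passed the test. In the catalytic F1 part, Atp5d, the delta subunit of the central stalk, read 12.55, 12.57 and 12.54 in TFEB muscle and 12.22, 12.26 and 12.31 in GFP muscle (0.29 ± 0.06, adjusted p = 0.016). The alpha and beta subunits Atp5a1 and Atp5b, which form the catalytic head, were at 0.06 ± 0.07 and 0.07 ± 0.07, gamma (Atp5c1) at -0.08 ± 0.07 and epsilon (Atp5e) at -0.04 ± 0.07. The Atp5d groups did not overlap, and its call was lost without TFEB replicate 2 or 3 (both 0.050) or GFP replicate 1 (0.061). Atp5k, a membrane subunit linked to dimers of the enzyme, read 12.74, 12.71 and 12.72 in TFEB muscle and 12.38, 12.45 and 12.51 in GFP muscle (0.27 ± 0.07, adjusted p = 0.022). All 3 of its probe sets were called higher, but the call on the brightest was lost without any TFEB array (0.057 to 0.067) or without GFP replicate 1 (0.080).

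The membrane ring of complex V is built from 1 protein that 3 genes encode with different import sequences. Atp5g3 read 13.50, 13.48 and 13.48 in TFEB muscle and 13.15, 13.15 and 13.18 in GFP muscle (0.32 ± 0.06, adjusted p = 0.0095), and its groups did not overlap. Atp5g1 read 12.76, 12.81 and 12.74 in TFEB muscle and 12.50, 12.49 and 12.65 in GFP muscle (0.22 ± 0.07, adjusted p = 0.056). Atp5g2 read 11.94, 11.87 and 11.91 in TFEB muscle and 11.91, 11.92 and 12.01 in GFP muscle (-0.04 ± 0.07, adjusted p = 0.66), and its groups overlapped. Atp5g1 minus Atp5g2 changed by 0.27 ± 0.04 and Atp5g1 minus Atp5g3 by -0.10 ± 0.05, both with groups that did not overlap, the second only narrowly. Atp5j, a stalk subunit, was the complex V member closest to no change, at 12.40, 12.37 and 12.28 in TFEB muscle and 12.30, 12.31 and 12.41 in GFP muscle.

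More than 1 probe set was present for 47 of the 89 genes, and in 10 of them the probe sets differed in call. Only Uqcrq had probe sets called in opposite directions, 1 higher and 2 lower. In Ndufa7, an accessory subunit of complex I, 2 of 5 probe sets were called lower and all 5 lay between -0.28 and -0.10. In Ndufs7, 1 of 2 probe sets was called higher, and in Ndufv1, 2 of 3.

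**Figure D4:**
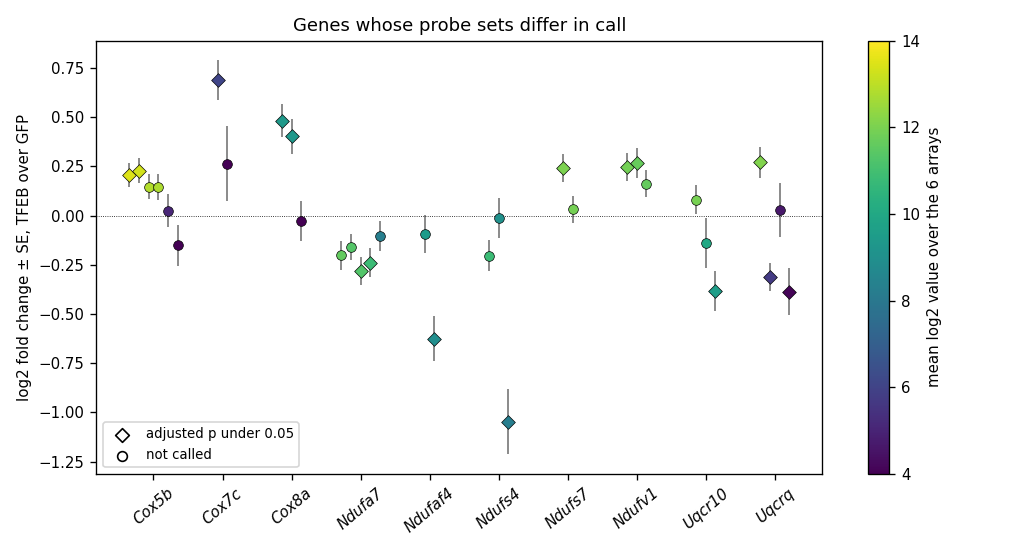
Log2 fold change ± SE (TFEB over GFP, vertical axis) of every probe set of the 10 genes whose probe sets differ in call, ordered within a gene by brightness and coloured by mean log2 value, with diamonds at an adjusted p under 0.05. The largest spread is in Ndufs4, from -1.05 on its dimmest probe set to -0.01.

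TFEB binds E-boxes, and the letters searched were CACGTG and its longer form TCACGTGA, which contains it. A RefSeq promoter (GRCm38.p6, 250 bases before to 50 after the start) was matched to 74 of the 89 genes, of which 15 were called higher and 3 lower. A gene with several annotated starts was counted where any of its windows held the motif. CACGTG was in the promoters of 6 of them, or 8.11%, against 8.09% of all 27025 genes in the table. The 6 were Ndufa7, Ndufv1, Atp5g1, Atp5g3, Atp5l and Atp5pb. On their brightest probe sets Ndufv1 and Atp5g3 were called higher and none lower, with a median log2 fold change of 0.16, against 0.08 over the 74 genes. TCACGTGA was in 1.35% of the member genes, namely Ndufa7 alone, and in 1.12% of all genes. The E-boxes with 20 bases on both sides before the start, 1 in each of 4 genes, are printed with these flanks, the motif in capitals, 5′ to 3′ on the gene's strand.
Atp5g1 E-box (chr11:96075650-96075695, minus strand): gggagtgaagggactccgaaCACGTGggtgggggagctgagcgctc
Atp5l E-box (chr9:44920864-44920909, minus strand): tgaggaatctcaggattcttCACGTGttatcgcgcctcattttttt
Ndufa7 E-box (chr17:33824480-33824525, plus strand): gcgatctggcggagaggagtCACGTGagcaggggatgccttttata
Ndufv1 E-box (chr19:4012899-4012944, minus strand): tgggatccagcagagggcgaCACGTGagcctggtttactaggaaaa
They began 44 bases before the start in Atp5g1, 147 in Atp5l and 169 in Ndufv1. Ndufa7 has 2 annotated starts, and its E-box lies 72 bases before one and 145 before the other. Atp5g1, Atp5l and Ndufa7, at 0.22, 0.04 and -0.20 on their brightest probe sets, were not called on these. Of the 5 probe sets of Ndufa7, 2 were called lower.

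Motifs of factors known for respiratory chain promoters were found in larger shares of these genes. CCGGAAG was in 27.0% of the 74 member promoters and in 9.93% of all genes, and 6 of its 20 holders were called higher and none lower (Cox6a1, Cox6b1, Cox8a, Ndufb7, Uqcrh and Atp5k), where 15 of the 74 were called higher and 3 lower. GCGCATGC was in 16.2% against 3.05% of all genes. Of its 12 holders, Cox6a1, Uqcrc1 and Atp5k were called higher and Ndufaf5 lower. AAGATGGC (YY1) was in 12.2% against 3.19%, and TCAAGGTCA (ERR receptors) in 2.70% against 0.466%. The median log2 fold change was 0.12 among holders of CCGGAAG, 0.08 among holders of GCGCATGC and 0.08 over all 74. Both strands were searched, and none of these 4 motifs contains another. A match describes the sequence and is no evidence of binding.

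Genes that serve the chain were described from 4 lists. Among 9 carriers and regulators of ADP, phosphate and ATP exchange, 2 were past the threshold and higher, where 8.62% of all genes were. Slc25a5, an adenine nucleotide carrier of proliferating tissues, rose to 10.61, 10.82 and 11.03 in TFEB muscle, against 9.53, 10.02 and 9.60 in GFP muscle (1.11 ± 0.16, adjusted p = 0.0039). Atpif1, the inhibitor of ATP hydrolysis by complex V, was at 9.63, 9.46 and 9.51 in TFEB muscle and 8.45, 8.69 and 8.46 in GFP muscle (1.00 ± 0.09, adjusted p = 0.0011). The groups of both genes did not overlap. Slc25a4, the heart and muscle form of the carrier, was at -0.02 ± 0.06 (adjusted p = 0.80), and Vdac3, an outer membrane channel, was lower (-0.29 ± 0.07, adjusted p = 0.026).

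Of 7 enzymes that deliver electrons to ubiquinone from other substrates, 4 were lower at an adjusted p under 0.05 (16.8% of all genes were) and none higher, with a median of -0.38. Sqor, which oxidises sulphide, fell by 0.69 ± 0.08 on the log2 scale (adjusted p = 0.0017) and Gpd2, the mitochondrial glycerol phosphate dehydrogenase, by 0.59 ± 0.09 (adjusted p = 0.0048), and both passed the threshold, where 4.90% of all genes did so in that direction. Dhodh and Prodh, which oxidise dihydroorotate and proline, were at -0.48 and -0.38 and were called. The electron transfer flavoprotein genes Etfa, Etfb and Etfdh were at 0.02, -0.13 and -0.03 and were not. Of 9 coenzyme Q synthesis genes, 2 were higher (22.2%, against 16.8% of all genes) and none lower, with a median of 0.10. They were Coq8b (0.57, adjusted p = 0.023), with a mean log2 value of only 6.11, and Coq5 (0.24, adjusted p = 0.048). Of 32 assembly factors on the array, 4 were higher (Sdhaf4, Cox19, Coa5 and Sco2) and 8 lower, with a median of -0.08, shares of 12.5% and 25.0% against 16.8% of all genes in either direction. This list includes 8 member genes, and among the 24 others 3 were higher and 7 lower, with a median of -0.12. Among those lower were Coa6 (-0.52), Cox16 (-0.47) and Surf1 (-0.37), all of complex IV, and Fmc1 (-0.44) and Atpaf2 (-0.41), of complex V. The 3 that were higher, Cox19 (0.44), Coa5 (0.41) and Sco2 (0.40), were of complex IV too.

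**Figure D5:**
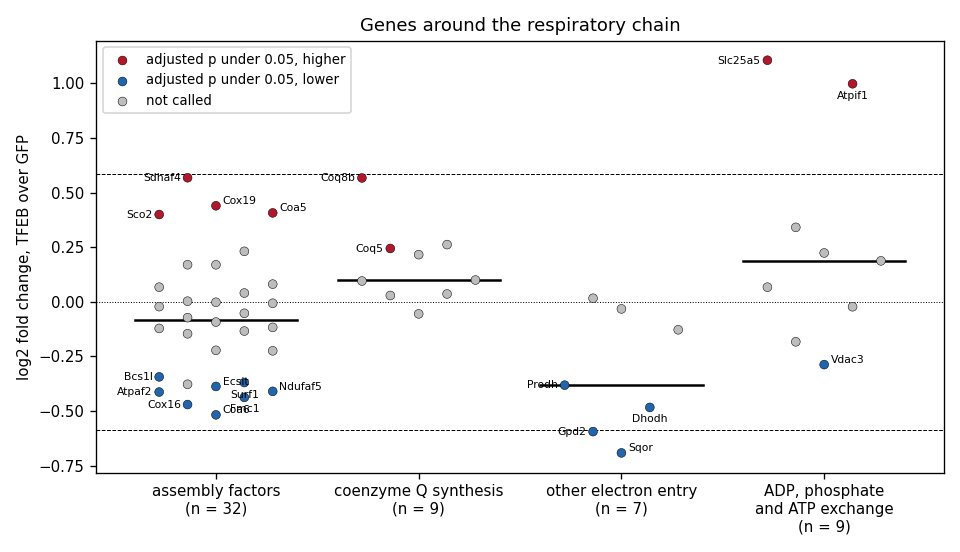
Log2 fold change (TFEB over GFP, vertical axis) of genes around the respiratory chain in 4 lists, with red for higher and blue for lower at an adjusted p under 0.05, grey for genes not called, solid bars for medians and dashed lines at a 1.5-fold change. Slc25a5 and Atpif1 lie above the upper line and Gpd2 and Sqor below the lower one.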

How the data were processed

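Muscle RNA of 6 mice was measured on 1 Affymetrix array each. The authors deposited log2 values, with a single value for each probe set in each sample. RMA and its R package affy are named in the submitters' processing notes, and their versions were not given in the sources used here. RMA corrects background, quantile-normalizes the arrays and summarises the probes of a set. That the scale is log2 follows from the range of the values (2.20 to 14.37), and they were not centred by gene. Because quantile normalization makes the distributions nearly equal, a shift of most transcripts one way would be hidden in part. Whether changes of the brightest probe sets, where most members lie, are compressed was not tested. An array has no read depth, and precision is limited by the number of arrays. Detection above background was not tested.

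Of 22690 probe sets, 64 Affymetrix controls were left out. The platform annotation gave 1 symbol to 20380 of the others, several to 691 and none to 1555. The comparison used limma 3.58.1 in R 4.3.3 (lmFit and eBayes, two-sided), with Benjamini-Hochberg adjustment over all 22626 probe sets. "Called" means an adjusted p under 0.05, and "past the threshold" adds a fold change of at least 1.5. The test that the study itself ran on the arrays was not given in the sources used here. For values per gene, the brightest probe set (highest mean over the 6 arrays) was taken. Ndufa4 was counted in complex IV. The fit was tested on simulated data.

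Genes given array by array were those with a probe set past the threshold, the isoform pairs, Ndufa9, Sdha and Cox5a, and in each complex up to 3 further genes of smallest adjusted p and the one closest to 0. Catalytic subunits and genes whose probe sets differ in call were named as well, and Ndufb2, Ndufb3, Uqcrh and the genes outside the chain were named after their values were seen. The members, lists and pairs were chosen with earlier results of these data known. Nothing states that the mice were otherwise independent (litter, injection or array batch), and no p-value here takes account of links between them. The limma p-values set a group difference against the spread of these arrays within their groups. In limma that spread is drawn toward a variance estimated over all probe sets. Alternatives were 3 other scalings, a filter on dim probe sets, the replicate number as a block, array weights, a trended robust prior, a plain two-tailed test, other ways to represent a gene, and leaving out each array.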

Additional observations from a re-analysis of the deposited data

How the results depend on the processing

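With the arrays shifted to equal medians, 13 member probe sets were called higher (27 as reported), and the median log2 fold changes were -0.015, 0.14, 0.069 and -0.00038 for complexes I, III, IV and V. With the arrays shifted to the fast fibre markers, 1 probe set was past the threshold and lower, 41 were called higher and 6 lower, and those medians were 0.12, 0.27, 0.20 and 0.13. The median over all probe sets was -0.13 with equal medians and -0.0028 with the fast fibre shift, against -0.06 as deposited. The plain two-tailed test called 5 lower. With the mean of a gene's probe sets, the complex II and IV medians were 0.088 and 0.087. Leaving out 1 array at a time gave 10 to 17 called higher, 2 to 13 called lower, 1 to 2 past the threshold and lower, and a complex IV median of 0.11 to 0.17. The medians of complexes II and III stayed above 0 under every alternative run, and no pair difference changed sign where it was computed. A shift of whole arrays cancels within a pair, so the equal-median and fast fibre fits could not change these differences.

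The replicate number as a block left 14 called higher and 5 lower. Counts under these alternatives are given without the share of all probe sets called in the same fit. The numbers were not used as pairs: deviations of same-numbered arrays correlated at 0.42, 0.17 and -0.23, and not every array correlated best with its own number.

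The dim filter, the replicate block, the trended robust prior and the plain test leave a log2 fold change as it was. Of 713 values of single genes under the alternatives, those unchanged ones included, 35 crossed 0, all of 14 genes that were not called. Under equal medians these were Cox8b (-0.061), Cox5a (-0.069), Ndufb9 (-0.068), Uqcrb (-0.058), Atp5j (-0.060), Ndufs3 (-0.049), Ndufv2 (-0.015), Cycs (-0.040), Atp5a1 (-0.013) and Atp5b (-0.00038), and under the fast fibre shift Atp5g2 (0.019), Sdha (0.034), Ndufs8 (0.0095) and Atp5e (0.020). With quantile normalization repeated they were Cox5a (-0.0052) and Atp5j (-0.0036), and with array weights Cox8b (-0.029), Cox5a (-0.0024), Ndufb9 (-0.0053) and Atp5j (-0.0071). With 1 array left out, the ranges that crossed 0 were -0.039 to 0.052 for Cox8b, -0.016 to 0.020 for Cox5a, -0.016 to 0.017 for Ndufb9, -0.015 to 0.025 for Uqcrb, -0.016 to 0.046 for Atp5j, -0.00080 to 0.042 for Ndufs3, -0.032 to 0.091 for Cycs, -0.051 to 0.018 for Sdha and -0.075 to 0.0012 for Atp5e. The cause of these shifts was not tested. With 3 arrays a group and an SE of 0.061 to 0.19 on member probe sets, changes of about 0.20 log2 units (Cox5b) were near the smallest that the test called.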

Other observations

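One probe set annotated to ND5, a complex I subunit encoded by mitochondrial DNA, was found after the values were seen and was not a member. It read 13.65, 13.68 and 13.48 in TFEB muscle and 13.78, 13.77 and 13.73 in GFP muscle (log2 fold change -0.15 ± 0.08, adjusted p = 0.18), and the groups did not overlap. The 8 probe sets that carried a member symbol together with another symbol had a median log2 fold change of -0.20, from -0.40 to 0.27, with 1 called higher and 3 lower.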
